A study of Mus musculus with 6 samples.

Results

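Ubiquitin ligases studied for their part in T cell tolerance, with the adaptor that switches some of them on, were examined in resting CD4 T cells exposed to vasoactive intestinal peptide (VIP). The set has 10 genes, Cbl, Cblb, Rnf128, Peli1, Dtx1, Rc3h1, Itch, Nedd4, Nedd4l and Ndfip1, out of 28632 gene names on the array. Its members were found by the gene name that the scanner files give each non-control probe, which returned 20 of 41174 probes, and all 20 probes passed the filters on signal. VIP-treated resting CD4 T cells from the spleens of C57BL/6J mice were set against untreated cells of the same strain, with 6 samples of each treatment that the labels number as biological replicates. In both groups the cells came from males and females of 6 to 32 weeks, 5 to 10 spleens were pooled for a sample, and CD4 cells were taken up with anti-CD4 magnetic beads. The sample titles call the cells spleenocytes, while the source labels call them resting CD4 T cells. Each of 6 two-colour arrays held the VIP-treated and the untreated sample of a replicate, with VIP-treated RNA in Cy5 on replicates 1, 3 and 5 and in Cy3 on replicates 2, 4 and 6. The sources used here give neither the dose of VIP nor the time of exposure.

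Ubiquitin ligases attach ubiquitin to chosen proteins and thereby mark them for breakdown or for a change of place. RING ligases bring the ubiquitin-loaded E2 enzyme to the substrate, while HECT ligases first take the ubiquitin onto themselves. In mouse T cells, loss of several of these genes leads to activation without costimulation or to autoimmunity, and some of them are raised in anergic cells, which is why they are called ligases of tolerance.

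The array reads each transcript through probes of 60 bases. One probe each of Cbl, Peli1, Rc3h1, Itch and Nedd4 is printed here from the deposited scanner files, 5′ to 3′ and without capitals, because these genes each have more than 1 probe and their probes did not all give the same sign or size:
Cbl: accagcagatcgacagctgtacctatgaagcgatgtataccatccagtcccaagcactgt
Peli1: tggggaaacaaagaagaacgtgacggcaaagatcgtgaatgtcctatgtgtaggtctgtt
Rc3h1: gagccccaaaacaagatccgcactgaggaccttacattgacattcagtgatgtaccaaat
Itch: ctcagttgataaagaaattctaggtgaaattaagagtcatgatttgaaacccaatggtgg
Nedd4: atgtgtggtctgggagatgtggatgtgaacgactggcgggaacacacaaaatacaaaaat
In mm9 the files place them at chr9:43961868-43961927 (minus strand), chr11:21048227-21048286 (plus), chr1:162895873-162897790 (plus), chr2:155036215-155036274 (plus) and chr9:72590466-72590525 (plus), in that order. The Rc3h1 probe spans 1918 bases of genome for its 60 bases of sequence. Exon and UTR annotation of mm9 was not used here. None of the 20 probes shares a run of 20 bases with any other probe on the array.

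The arrays read signal well above background for 59.1% to 79.0% of spots in the VIP-treated channel and for 63.2% to 76.0% in the untreated channel. All 10 CD4 T cell markers were well above background on 6 of 6 arrays in both channels. Some markers of other cells were also detected on every array in both channels, among them 6 of 7 for B cells, 7 of 7 for macrophages and 2 of 2 for CD8 T cells, and none of the tested markers of other cells was called between treatments. Between samples the mean log2 intensity of the CD8 T cell markers ran from 9.65 to 13.1 with VIP and from 9.59 to 12.8 untreated. That of the CD4 T cell markers ran from 13.2 to 13.8 and from 13.4 to 13.9. On replicates 3 and 6 the VIP-treated and the untreated sample differed in sex-linked transcripts. The log2 ratio of Xist, of VIP-treated over untreated, was -6.12 on replicate 3 and 2.03 on replicate 6, and that of the Y-linked Ddx3y was 2.04 and -3.96. On the other 4 arrays Xist lay between -0.083 and 0.34. Results for the 10 genes, and for the other genes named below that the main test called, are therefore given with and without replicates 3 and 6. The remaining named genes are given on all arrays measured.

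None of the 10 ligase and adaptor genes passed the test for a change with VIP (0 of 10 at a Benjamini-Hochberg adjusted p under 0.05 by limma). Of all 19225 genes tested, 3.08% were called. At an unadjusted p under 0.05 there was 1 member, Rnf128, against 16.7% of all genes. The fitted log2 ratios ran from -0.087 for Peli1 to 0.17 for Rnf128, with 5 above and 5 below 0. Their median was -0.0072, beside -0.0047 for all genes, and their median size was 0.083, beside 0.048. The median standard error was 0.049 for the 10 genes and 0.048 for all genes. For 9 of the 10 genes the 95% interval of the log2 ratio lay within a 1.3-fold difference in either direction, as it did for 96.5% of all genes, and Cblb was the exception. Without replicates 3 and 6, the fitted log2 ratios of the 8 genes other than Cblb and Rnf128 kept their signs and ran from -0.12 for Nedd4 to 0.095 for Itch, with adjusted p-values of 0.512 and above by limma. The same sign on 6 of 6 arrays was found for 0 of the 10 genes, and for 6.3% of all genes. RNA was read from whole samples, so fewer cells of a type and less RNA per cell cannot be told apart.

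**Figure D1:**
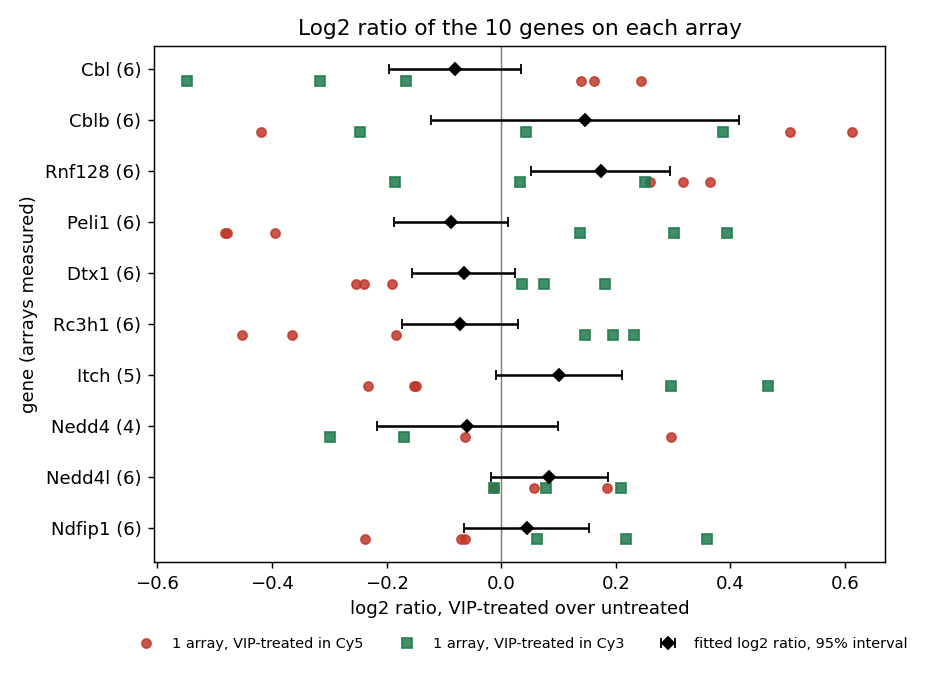
Log2 ratio on each array, VIP-treated over untreated, for the brightest probe of each gene (x axis), 1 point an array, with the fitted ratio and its 95% interval as a diamond and bar; the number of arrays measured stands beside each gene. Only the interval of Rnf128 lies clear of 0, and for Cbl, Peli1, Dtx1, Rc3h1, Itch and Ndfip1 the 2 dye orientations fall on opposite sides of 0.

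Rnf128, the gene for the transmembrane RING ligase GRAIL that is raised in anergic mouse T cells, had the lowest p of the set. Its normalised log2 intensity ran from 7.67 to 8.42 with a median of 8.24 in VIP-treated samples, against 7.79 to 8.21 with a median of 7.98 in untreated samples. The ranges overlapped. The log2 ratio was 0.26, 0.033, 0.36, -0.19, 0.32 and 0.25 on replicates 1 to 6, so that 5 of 6 arrays were higher with VIP and replicate 4 was lower. The fitted value was 0.17 ± 0.055 (SE, n = 6 arrays), or 1.13-fold, with a 95% interval of 0.052 to 0.30 and an adjusted p of 0.133 by limma. Within the 3 slides, each of which carried 1 array of each dye orientation, it stood at 0.15, 0.089 and 0.28. Without replicate 4 the value was 0.23, with an adjusted p of 0.048. Rnf128 lies on the X chromosome, and its probe is at chrX:136206442-136206501. With replicates 3 and 6 left out, on the 4 matched arrays, the fitted value was 0.11, with an adjusted p of 0.470 by limma. Rnf128 was called in 1 of 17 other settings, the one without replicate 4. With the model fitted on all probes, the adjusted p of its probe without replicate 4 was 0.0521 by limma.

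Cblb encodes Cbl-b, a RING ligase that raises the need of T cells for costimulation through Cd28. The log2 intensity of its brightest probe (chr16:52050919-52050978) ran from 8.94 to 10.6 with a median of 9.12 in VIP-treated samples, against 8.67 to 9.94 with a median of 9.16 in untreated samples. Replicate 1 held the highest sample of both treatments. Its log2 ratio was 0.61, 0.043, -0.42, 0.39, 0.50 and -0.25 on replicates 1 to 6. The 2 negative values are those of replicates 3 and 6, the arrays whose samples differed in sex-linked transcripts, and the other 4 arrays were higher with VIP. Over all 6 arrays the fitted value was 0.15 ± 0.12 (SE, n = 6), with a 95% interval of -0.12 to 0.42 and an adjusted p of 0.614 by limma. On the 4 matched arrays it was 0.39 with an adjusted p of 0.020 by limma, a comparison chosen after the values were seen. It was 0.31 without replicate 3 (adjusted p = 0.0882 by limma) and 0.22 without replicate 6 (adjusted p = 0.506 by limma). It was 0.052 without replicate 1, 0.15 without replicate 2, 0.065 without replicate 4 and 0.079 without replicate 5. The part of the difference in sex-linked transcripts in the Cblb values was not tested. A second Cblb probe (chr16:52120279-52120338) lay near background, being well above it on 3 arrays with VIP and 1 untreated, and gave 0.024 ± 0.042 (SE, n = 6, adjusted p = 0.853 by limma over 27454 probes).

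Cbl encodes c-Cbl, the relative of Cbl-b that acts on receptor and adaptor tyrosine kinase complexes. Its brightest probe (chr9:43958124-43958183, minus strand) averaged 8.62 ± 0.41 in VIP-treated samples and 8.70 ± 0.33 in untreated samples on the log2 intensity scale (SD, n = 6 each). It was higher with VIP on the 3 arrays with VIP in Cy5, by 0.24, 0.14 and 0.16, and lower on the 3 with VIP in Cy3, at -0.32, -0.17 and -0.55. With the dye as a term, the fitted log2 ratio was -0.081 ± 0.052 (SE, n = 6), with a 95% interval of -0.20 to 0.034 and an adjusted p of 0.487 by limma. The printed Cbl probe gave -0.00081 ± 0.042 (SE, n = 6), with array values between -0.077 and 0.079. The groups overlapped on both probes.

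**Figure D2:**
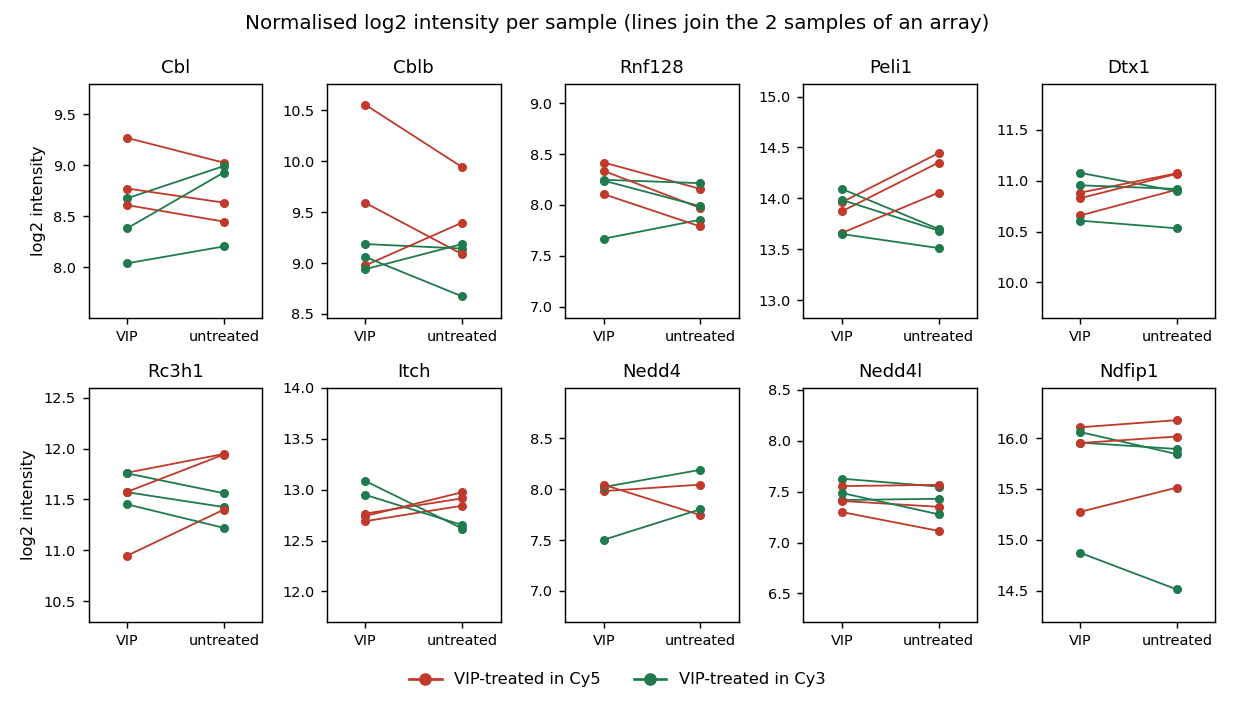
Normalised log2 intensity (y axis, the same span in every panel) of the brightest probe of each gene in VIP-treated and untreated samples; each line joins the 2 samples of an array and is coloured by the dye that carried VIP-treated RNA. The ranges of VIP-treated and untreated samples overlap in all 10 panels, and in Cbl, Peli1, Dtx1, Rc3h1, Itch and Ndfip1 the lines slope by dye. The ranges leave out the pairing within arrays, and overlap was not counted over all genes.

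Peli1 encodes Pellino 1, a RING-type ligase known in mouse T cells for acting on the NF-kappaB subunit c-Rel. The brightest Peli1 probe (chr11:21049295-21049354) had log2 intensities of 13.6 to 14.1 with a median of 13.9 in VIP-treated samples, against 13.5 to 14.4 with a median of 13.9 in untreated samples. Its arrays split by dye, at -0.48, -0.48 and -0.40 with VIP in Cy5 and 0.39, 0.30 and 0.14 with VIP in Cy3, and the fitted value was -0.087 ± 0.045 (SE, n = 6, adjusted p = 0.376 by limma). The printed Peli1 probe, 1 of 2 for this gene, had log2 intensities of 10.85, 10.69, 10.56, 10.97, 10.95 and 11.26 in VIP-treated samples of replicates 1 to 6, against 11.10, 11.01, 10.87, 10.80, 11.03 and 11.51 in untreated samples. It was lower with VIP on 5 of 6 arrays, replicate 4 being the exception. Its fitted value was -0.17 ± 0.064 (SE, n = 6), with a 95% interval of -0.31 to -0.030, an unadjusted p of 0.022 and an adjusted p of 0.212 by limma over all probes. Both Peli1 probes were thus below 0 and neither was called. Without replicate 4 the printed probe stood at -0.25 (adjusted p = 0.0409 by limma), and without replicates 3 and 6 at -0.12 (adjusted p = 0.626 by limma).

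Dtx1 encodes Deltex 1, a RING ligase of the Notch pathway that is induced by NFAT factors in anergic mouse T cells. In VIP-treated samples its log2 intensity averaged 10.8 ± 0.18, and in untreated samples 10.9 ± 0.20 (SD, n = 6 each). The fitted log2 ratio was -0.066 ± 0.041 (SE, n = 6, adjusted p = 0.470 by limma), with -0.037, -0.078 and -0.082 in the 3 slides. Its only probe lies at chr5:121130278-121130337 on the minus strand.

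Rc3h1 encodes Roquin 1, which has a RING domain and is known in mouse T cells for binding and destabilising messenger RNAs such as that of Icos. Log2 intensities of its brightest probe (chr1:162904956-162905015) averaged 11.5 ± 0.30 in VIP-treated samples and 11.6 ± 0.30 in untreated samples (SD, n = 6 each). The fitted value was -0.072 ± 0.046 (SE, n = 6, adjusted p = 0.484 by limma). The printed probe of this gene gave -0.035 ± 0.041 (SE, n = 6), also below 0.

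The HECT ligases were measured with 7 probes. Itch, which limits Th2 cytokine production in mouse T cells through JunB, had its brightest probe at chr2:155052451-155052514, measured on 5 arrays because the spot of replicate 6 was marked as an outlier. Log2 intensities were 12.8, 13.1, 12.7, 12.9 and 12.7 in VIP-treated samples of replicates 1 to 5, against 12.9, 12.6, 12.8, 12.7 and 13.0 in untreated samples. The groups overlapped, and the 3 arrays with VIP in Cy5 were lower with VIP while the 2 with VIP in Cy3 were higher. The fitted value was 0.10 ± 0.049 (SE, n = 5, adjusted p = 0.344 by limma).

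The 4 Itch probes did not share a sign. Along the plus strand of chromosome 2, the probe that starts at 154967640 gave a log2 ratio of -0.12 ± 0.042 and the one that starts at 155028148 gave -0.15 ± 0.069, each lower with VIP on 5 of 6 arrays. Their unadjusted p-values were 0.0144 and 0.0512 by limma, and their adjusted p-values over all probes 0.170 and 0.314. Farther along, the printed probe at 155036215 gave 0.073 ± 0.046 and the brightest probe 0.10 ± 0.049 (SE). Array values of the probe at 155028148 were -0.077, -0.0015, -0.51, 0.0059, -0.013 and -0.31 on replicates 1 to 6, so that replicates 3 and 6 held the lowest values. Without these 2 arrays the probe at 155028148 stood at -0.021 and the one at 154967640 at -0.083 (adjusted p = 0.927 and 0.572 by limma). The difference between Itch probes was not tested.

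Nedd4, the founding member of its HECT family, is known in mouse T cells for acting on Cbl-b. Its printed probe is its brightest, with usable spots on replicates 1, 2, 3 and 6. Log2 intensities there were 7.98, 8.02, 8.04 and 7.50 in VIP-treated samples, against 8.05, 8.19, 7.75 and 7.80 in untreated samples. Only replicate 3 was higher with VIP, and the fitted value was -0.059 ± 0.069 (SE, n = 4, adjusted p = 0.749 by limma). On replicates 1 and 2 alone it was -0.12 (adjusted p = 0.617 by limma), a fit that takes its spread from the other genes. A dimmer Nedd4 probe (chr9:72597306-72597365), measured on 6 arrays, gave 0.023 ± 0.052 (SE) and was higher with VIP on 4 of them.

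Nedd4l, a close relative of Nedd4 best known for acting on sodium channels in kidney, averaged 7.47 ± 0.12 in VIP-treated samples and 7.38 ± 0.17 in untreated samples on the log2 intensity scale (SD, n = 6 each). Its log2 ratio was positive in every slide, at 0.086, 0.068 and 0.098, and the fitted value of 0.084 ± 0.046 (SE, n = 6) had an adjusted p of 0.411 by limma. On single arrays it was higher with VIP on 4 and lower on 2, where it stood at -0.012 and -0.013. The probe covers chr18:65363576-65365318.

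Ndfip1 encodes a membrane adaptor that binds Itch and other Nedd4-family ligases and releases their activity. Its brightest probe (chr18:38624717-38624776) ran from 14.9 to 16.1 with a median of 15.95 in VIP-treated samples, against 14.5 to 16.2 with a median of 15.87 in untreated samples, on the log2 intensity scale and with no saturated spot. Replicate 6 was the lowest sample of both treatments. The 3 probes of Ndfip1 gave log2 ratios of 0.045 ± 0.049, 0.051 ± 0.061 and 0.043 ± 0.049 (SE, n = 6, 6 and 5), and the adjusted p of the first was 0.726 by limma.

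**Figure D3:**
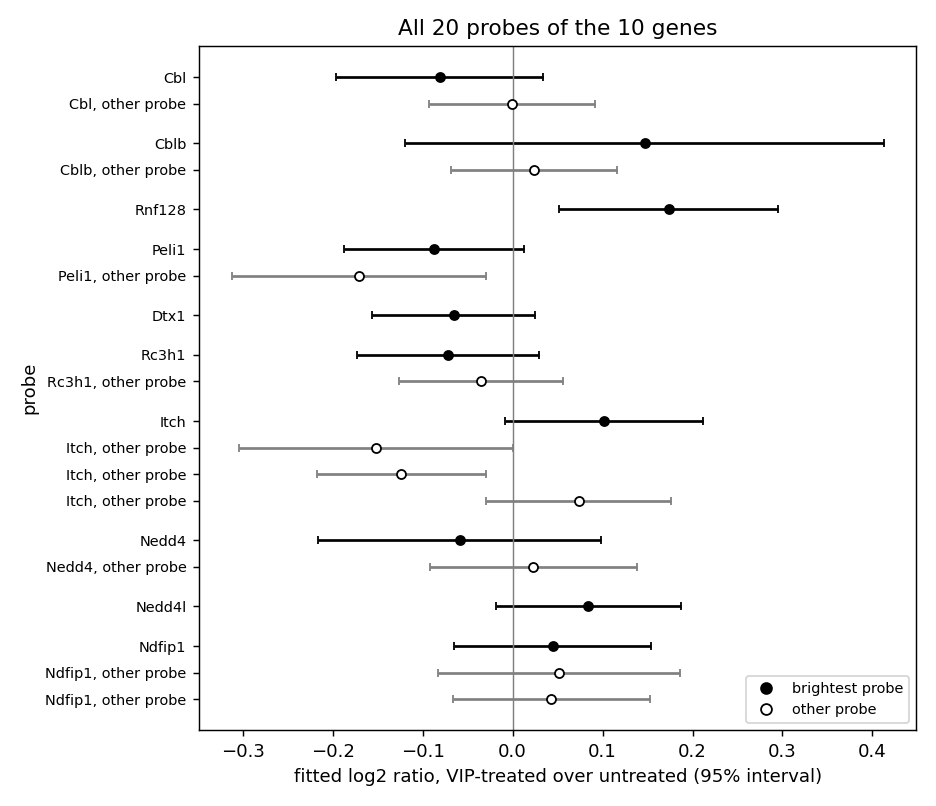
Fitted log2 ratio, VIP-treated over untreated, and its 95% interval (x axis) for each of the 20 probes, filled for the brightest probe of a gene and open for the others. The 4 Itch probes lie on both sides of 0, from -0.15 to 0.10, while the 3 Ndfip1 probes lie between 0.043 and 0.051.

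Of the 20 probes, 0 were called when the model was fitted on all 27454 kept probes, of which 2.88% were called. The single-array ratios of most of these genes differed by dye orientation. The dye term, which is added to the log2 ratio where VIP-treated RNA carried Cy5 and subtracted where it carried Cy3, had a median size of 0.17 over the 10 genes, beside 0.070 over all genes. It was larger than the VIP term in 7 of the 10 genes, and in 60.7% of all genes. It was -0.36 for Peli1, -0.28 for Itch, 0.26 for Cbl and -0.26 for Rc3h1, and -0.0076 for Nedd4l.

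Transcripts of proteins on which the ligases act were looked at next, from lists chosen with earlier results of these data known. Among 21 tested substrates and partners, 0 were called, 5 had an unadjusted p under 0.05, and 8 had a positive log2 ratio, with a median of -0.059. Of all genes tested 3.08% were called, 16.7% had an unadjusted p under 0.05 and 47.1% were positive. Cflar, an inhibitor of death receptor signalling, stood at -0.15 ± 0.045 (SE, n = 6, adjusted p = 0.102 by limma), with -0.58, 0.37, -0.71, 0.18, -0.57 and 0.38 on replicates 1 to 6. These arrays split by dye, lower with VIP in Cy5 and higher with VIP in Cy3. As the mean of its probes Cflar stood at -0.079 (adjusted p = 0.318 by limma). Jun, the AP-1 subunit, stood at -0.20 ± 0.061 (SE, n = 6, adjusted p = 0.111 by limma), with array values of -0.50, -0.081, -0.48, -0.19, -0.17 and 0.19. With the slide as a block Jun was called, at an adjusted p of 0.0325 by limma.

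Of 9 transcripts known as targets of Roquin proteins, 0 were called and 3 had an unadjusted p under 0.05, where 3.08% and 16.7% of all genes did. The lowest p was that of Ets1, a T cell transcription factor gene. It stood at 0.20 ± 0.048 (SE, n = 6, adjusted p = 0.0537 by limma). On 5 of 6 arrays Ets1 was higher with VIP. Tnfrsf4, which encodes the costimulatory receptor OX40, was higher on 6 of 6 arrays, at 0.18 ± 0.058 (adjusted p = 0.131 by limma). Its array values were 0.076, 0.27, 0.016, 0.12, 0.020 and 0.60 on replicates 1 to 6. Ets1 was called as the mean of its probes (0.22, adjusted p = 0.0233 by limma) and with no filter on dim probes (adjusted p = 0.0478 by limma). It stood at -0.0031 with outlier-marked spots kept, a setting in which the brightest probe was chosen again and may be another one.

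The lists of related ligases, of ubiquitin, E1 and E2 genes and of deubiquitinases were also without a call, and are read against the same shares of 3.08% called and 16.7% with an unadjusted p under 0.05. Among 22 tested relatives of the ligases and adaptors 0 were called and 3 had an unadjusted p under 0.05, with a median log2 ratio of -0.0012. Znrf1 stood at -0.14 (adjusted p = 0.193 by limma) and Smurf1, a HECT relative that was lower with VIP on 6 of 6 arrays, at -0.10 (adjusted p = 0.239 by limma). As the mean of a gene's probes Znrf1 stood at -0.15 and Smurf1 at -0.033 (adjusted p = 0.0971 and 0.735 by limma). Of 11 ubiquitin, E1 and E2 genes 0 were called and 2 had an unadjusted p under 0.05. Rps27a, which encodes ubiquitin fused to a ribosomal protein, stood at -0.25 (adjusted p = 0.166 by limma), with 0.56, -0.89, 0.098, -0.52, 0.48 and -1.23 on replicates 1 to 6. Its arrays split by dye, higher with VIP in Cy5 and lower with VIP in Cy3. Uba1, the main E1 enzyme, stood at 0.13 (adjusted p = 0.259 by limma). Of 13 deubiquitinases 0 were called and 3 had an unadjusted p under 0.05. Tnfaip3, the NF-kappaB feedback gene known as A20, came closest at 0.24 ± 0.058 (SE, n = 4 arrays, adjusted p = 0.0704 by limma), and was higher with VIP on all 4 arrays measured. With outlier-marked spots kept, Tnfaip3 stood at 0.15 (adjusted p = 0.341 by limma). Otud7b stood at -0.13 (adjusted p = 0.166 by limma) and was lower on 6 of 6, but stood at -0.079 as the mean of its probes (adjusted p = 0.302 by limma).

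Some other genes of the anergy programme changed, in a list that was also chosen with earlier results of these data known. Of 20 tested genes 1 rose and 3 fell, where 1.72% of all genes rose and 1.37% fell, and the list's median log2 ratio was 0.017. Egr2 and Egr3, transcription factors that in mouse T cells act upstream of Cblb and other tolerance genes, fell by 0.72 ± 0.12 and 0.82 ± 0.16 on the log2 scale (SE, n = 6, adjusted p = 0.0107 and 0.0245 by limma). Both were lower with VIP on 5 of 6 arrays, and the size of the fall differed by dye orientation. Egr2 stood at -0.93, -1.87 and -0.96 on replicates 1, 3 and 5, with VIP in Cy5. On replicates 2, 4 and 6, with VIP in Cy3, it stood at -0.048, -0.60 and 0.074. Egr3 stood at -0.88, -2.06 and -0.87 with VIP in Cy5, and at -0.097, -1.04 and 0.047 with VIP in Cy3. As the mean of its probes Egr3 stood at -0.47 and was still called (adjusted p = 0.038 by limma), while Egr2 stayed at -0.72. On the 4 matched arrays Egr2 stood at -0.63 and Egr3 at -0.72 (adjusted p = 0.00721 and 0.0206 by limma). Ndrg1, a gene reported to maintain anergy in mouse T cells, rose by 0.28 ± 0.054 (log2 ratio and SE, adjusted p = 0.0208 by limma) and had a positive ratio on 6 of 6 arrays. Dgkz, which encodes the diacylglycerol kinase zeta that damps T cell receptor signals, fell by 0.17 ± 0.039 (adjusted p = 0.0452 by limma) and was lower on 6 of 6 arrays. On the 4 matched arrays Ndrg1 stood at 0.23 and Dgkz at -0.18, and neither was called (adjusted p = 0.0726 and 0.118 by limma). The call for Dgkz was lost on leaving out any 1 array (adjusted p of 0.0880 to 0.179 by limma). It was also lost with the slide as a block (0.0732), with outlier-marked spots kept (0.0724) and with median centring (0.267). The call for Egr3 was lost without replicate 2 or 4 (0.0631 and 0.0591), and that for Ndrg1 without replicate 1, 5 or 6 (0.0830, 0.0726 and 0.0546). With the scanner software's own processed signals none of the 4 calls was made (adjusted p of 0.140 for Egr2 to 0.191 for Egr3). None was made without the dye term (adjusted p of 0.125 for Ndrg1 to 0.253 for Egr2 by limma). The same held with the deposited value table (0.134 for Egr2 to 0.185 for Egr3) and with the 12 channels as unpaired samples. Of 17 other settings, Egr2 was called in 13, Egr3 in 11, Ndrg1 in 9 and Dgkz in 3.

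**Figure D4:**
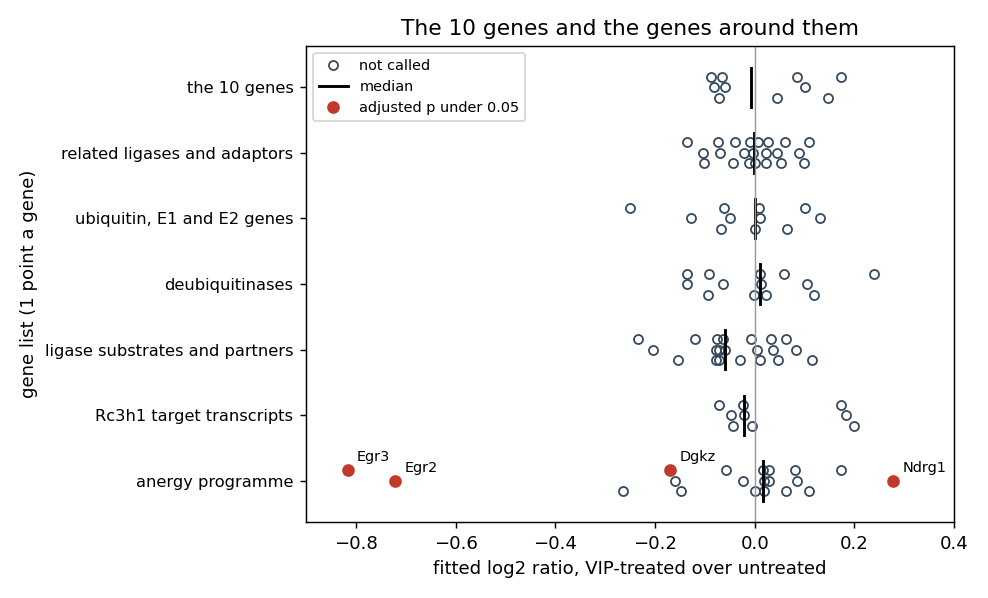
Fitted log2 ratio, VIP-treated over untreated (x axis), for the 10 genes and for 6 lists of genes around them, 1 point a gene, with a bar at each list's median and filled points for genes with an adjusted p under 0.05. All 4 filled points lie in the anergy programme list, from -0.82 for Egr3 to 0.28 for Ndrg1.

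Because Egr2 and Egr3 changed, promoter windows were searched for the letters GCGNGGGCG of the EGR motif on both strands. RefSeq windows on GRCm38.p6, from 250 bases before to 50 after the start, matched 7 of the 10 genes with 8 windows, while Itch, Nedd4l and Ndfip1 had no window. The letters were found in 2 of the 8 windows and in 5.55% of 32851 windows of the same length. Those 2 belong to Cbl and Nedd4, and the 60 bases before each start are shown with the match in capitals:
Cbl: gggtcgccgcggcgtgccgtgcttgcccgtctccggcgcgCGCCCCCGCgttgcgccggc
Nedd4: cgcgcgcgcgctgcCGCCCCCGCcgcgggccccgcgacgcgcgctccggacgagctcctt
They lie at chr9:44234047-44234106 (minus strand) and chr9:72662271-72662330 (plus strand) of GRCm38.p6. The Cbl window holds another match after the start. The cAMP response element TGACGTCA was found in 0 of the 8 windows and in 1.79% of all windows, and its core TGACG in 1 of the 8, another Nedd4 window, and in 20.8% of all. A match describes the letters only, and neither Cbl nor Nedd4 was called.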

How the data were processed

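Spot intensity values in the deposited scanner files were made with Agilent Feature Extraction 9.5.1.1 and stand beside log10 ratios of Cy5 over Cy3, with probe positions on mm9, per the file headers. The authors also deposited a value table, which equals those log10 ratios with the sign turned on replicates 2, 4 and 6 (largest difference 4.8e-06, median 0 on every array). It served as an alternative. Labelling used 250 ng of RNA, per the labels.

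Mean signal minus median local background was corrected by normexp (offset 50) and loess-normalised per array with limma 3.58.1 (R 4.3.3). Controls and outlier-marked spots were left out. The deposited intensities thus became log2 ratios. Probes needed signal well above background on 3 of 6 arrays in either treatment, and 2 usable arrays per dye orientation, the latter chosen after an earlier look at these data. The brightest probe stood for a gene, named through RefSeq for 60.3% of probes. Log2 intensities per sample came from loess and Aquantile scaling and are not comparable between probes. limma modelled the log2 ratio with a dye term over 19225 genes, paired within arrays by design, 2-sided, with 0.05 as the threshold for p adjusted after Benjamini-Hochberg.

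The members and lists were chosen with earlier results of these data known. Every member is named with all its probes. From each list up to 4 called genes are named, or the 2 of lowest p. On simulated data of 19225 genes the model recovered 47.8%, 88.1% and 98.5% of log2 changes of 0.25, 0.5 and 1.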

Additional observations from a re-analysis of the deposited data

Results flagged for a closer look

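Of 30 groups of values looked at for a sample far from the others (VIP-treated levels, untreated levels and log2 ratios per array of the 10 genes), 2 held one, and chance marks about 1 in 20 groups. The Nedd4 level of VIP-treated replicate 6 was 7.50 on the log2 intensity scale, where the other 3 VIP-treated samples lay between 7.98 and 8.04. The Dtx1 level of untreated replicate 6 was 10.5, where the other 5 untreated samples lay between 10.9 and 11.1. Replicate 6 is an array on which the 2 samples differed in sex-linked transcripts, and the part of that difference in these levels was not tested.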

How the results depend on the processing

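The count of 0 members called held in 15 of 17 other settings. It was 1 without replicate 4 (Rnf128) and 1 without replicates 3 and 6, on arrays whose sex-linked transcripts matched (Cblb), a setting chosen after seeing the data, and ran from 0 to 1 on leaving out 1 array. Of the members' 20 probes, 0 were called in 13 of 15 other settings, 1 without replicate 4 (the printed Peli1 probe) and 1 without replicates 3 and 6 (Cblb), with 0 to 1 on leaving out 1 array. Of 170 results for members, 2 changed sign: Itch stood at -0.047 as the mean of its probes, which include 2 below 0, and Nedd4 at 0.031 without replicate 1, the upper end of -0.15 to 0.031 on leaving out 1 array. The median of the 10 genes stayed between -0.027 and 0.031. Of the genes around them, Ets1 stood at -0.0031 with outlier-marked spots kept. The brightest probe was chosen again in that setting, so another Ets1 probe may stand for the gene there, which was not checked. The count of 593 changed genes became 38 with the scanner software's processed signals, 41 with the deposited table, 308 with median centring, 124 without the dye term and 368 on the 4 matched arrays, and ran from 254 (without replicate 5) to 498 on leaving out 1 array, with 295 without replicate 1 and 364 without replicate 6. With no replicate block, treating 12 channels as unpaired samples, it was 5, and 0 members were called. The cause of these shifts was not tested, beyond fewer arrays in some settings. The number of arrays limits the precision, with a median standard error of 0.049 for the 10 genes.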
